A study of Saccharomyces cerevisiae with 12 samples.

Results

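The promoters of the genes for cytosolic ribosomal proteins of Saccharomyces cerevisiae were examined for insertions of the Ty5 retrotransposon steered by transcription factors. An intergenic region was taken when the gene it lies upstream of has a symbol of the large subunit (RPL), the small subunit (RPS) or the ribosomal stalk (RPP). By this rule 130 of 4532 intergenic regions were members, and they lie upstream of 135 ribosomal protein genes. There were 75 regions for 76 RPL genes, 54 regions for 54 RPS genes and 5 regions for 5 RPP genes, and 5 of the 130 regions serve 2 ribosomal protein genes each. The symbols RPS10A and RPS25A had no upstream region. RPP1-PAN5 matched the name pattern, but RPP1 encodes a subunit of the RNA-processing enzymes RNase P and RNase MRP, so the region was left out; it held 0 to 2 insertions in each library.

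Calling cards record where a factor has been on the DNA. A factor joined to Sir4, which binds the Ty5 integrase, directs Ty5 into nearby DNA, and each insertion is a lasting mark. Each of 12 groups had 1 library, made from a single clone with the factor fused at its C-terminus to Sir4, a HIS3-marked Ty5 under the GAL1/10 promoter, 3 days on galactose, 2 days on YPD and 3 days of selection on SC-HIS with 5-FOA. Genomic DNA was cut in 3 separate digests with HinP1I, HpaII and TaqαI, and the DNA beside Ty5 was amplified by inverse PCR.

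All strains lacked SIR4. Cbf1 and Tye7 are yeast factors of the basic helix-loop-helix (bHLH) family. Cbf1 was mapped in cbf1D cells, as were its bHLH-ZIP fragment with the leucine zipper, its bHLH fragment without it, and a bHLH-ZIP fragment carrying the basic region of Tye7. That last fusion was in BY4742 and the others in BY4741, so the swapped basic region and the strain background cannot be told apart. The bHLH domain of NPAS2, a mammalian clock factor, was mapped in cbf1D cells alone and with the Cbf1 zipper added. Tye7 was mapped in tye7D cells. Under the TEF1 promoter it was mapped in sir4D cells that kept TYE7 (TEF1p-Tye7) and in gcr2D cells (TEF1p-Tye7 gcr2D). The glycolytic activators Gcr1 and Gcr2 and the leucine zipper (bZIP) factor Cst6 were mapped in cells with sir4D alone, so the untagged factor was also present. With 1 library per group, every test compares libraries and not conditions, no value has a replicate check, and intervals cover counting error only.

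Ribosomal protein genes are among the most heavily transcribed genes of growing yeast. Most of their promoters are bound by Rap1, which recruits Fhl1 and its coactivator Ifh1, and by Sfp1 and, at many of them, the HMG-box protein Hmo1; growth signals act on the genes through these factors. Rap1 also works with Gcr1 and Gcr2 at the promoters of glycolytic genes, and at telomeres it recruits Sir proteins. Cbf1 and Tye7 bind E-boxes, and Cst6 binds sites of the CRE type. Most yeast ribosomal proteins are encoded by a pair of paralogs, marked A and B.

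The libraries held 2415 intergenic insertions for NPAS2 bHLH up to 37782 for Cst6. The authors' background held 66271 intergenic insertions for 9 libraries and 53808 for Gcr1, Gcr2 and Cst6 and was made in a way not given in the sources used here. Libraries that share a background share its error, so the comparisons are not independent. A share is the percentage of a library's intergenic insertions, and 3 insertions, the limit that a count of 0 allows, correspond to 0.00794% in Cst6 and to 0.124% in NPAS2 bHLH.

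The regions themselves differ from the average intergenic region. They had a median length of 785.5 bp against 440 bp over all regions, and they made up 2.87% of regions but 3.97% of intergenic bases. The background placed 5.47% of its insertions in them for 9 libraries and 5.14% for the other 3. Divergent regions, with a gene leaving each end, numbered 72, and tandem regions 58. Only 63 regions lead into ribosomal protein genes and no other gene, whereas 67 are also upstream of another gene. In addition, 42 regions (32.3%, against 22.0% of all regions) span other annotated genes that do not bound a region in the authors' tables. An insertion in a shared region cannot be assigned to either gene from its count.

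In 11 of the 12 libraries the ribosomal protein regions together held a smaller share of insertions than the background did, with an interval below a ratio of 1, and Cst6 was the exception. NPAS2 bHLH with the Cbf1 zipper was lowest. It held 23 insertions in the 130 regions, 0.804% of its total, which was 0.147 times the background share (95% interval 0.093 to 0.221), and 118 regions held none. Cbf1 held 614 insertions there (2.26%, 0.413 times background, 0.379 to 0.450). Cbf1 bHLH, without the zipper, held 1129 (4.40%, 0.803 times, 0.75 to 0.859). These 3 values span most of the range. Tye7 stood at 0.655 times background, NPAS2 bHLH at 0.726, TEF1p-Tye7 at 0.432 and TEF1p-Tye7 gcr2D at 0.594. Gcr1 stood at 0.642 and Gcr2 at 0.571, and the Cbf1 fragments at 0.339 for bHLH-ZIP and 0.306 for the form with the Tye7 basic region. Cst6 held 2282 insertions in these regions, 6.04% of its total and 1.17 times background (1.11 to 1.24), and 1246 of them lay in the single region RHO5-RPS3. Without that region Cst6 fell to 0.554 times background, the opposite direction.

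Shares of a library sum to 100%, so a region where insertions gather lowers the share of every other region. For comparison, tandem regions outside the set and not called higher (defined below), a set chosen by that outcome, had a pooled ratio of 0.367 in Cbf1, 0.353 in Cst6, 0.455 in Gcr1, 0.579 in Gcr2, 0.807 in Tye7 and 0.902 in Cbf1 bHLH. The 63 regions that lead into ribosomal protein genes alone stood at 0.160 in Cbf1, 0.232 in Cst6, 0.738 in Tye7 and 0.705 in Cbf1 bHLH. In bHLH-ZIP these 63 regions held 16 insertions in all, 0.103 times background (0.059 to 0.168), where other tandem regions stood at 0.328. In Gcr1 they stood at 0.980 with GAS2-RPL26A, which was called higher, and at 0.384 without it. The part of lowering by other regions in these ratios was not tested. Scaling to insertions outside the 10 fullest regions of each library moved the median log2 ratio of all regions by 0.04 to 1.13, most in NPAS2 bHLH with the Cbf1 zipper. It left all 12 pooled ratios on the same side of 1, with Gcr1 at 0.942 and Cst6 at 1.58.

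**Figure D1:**
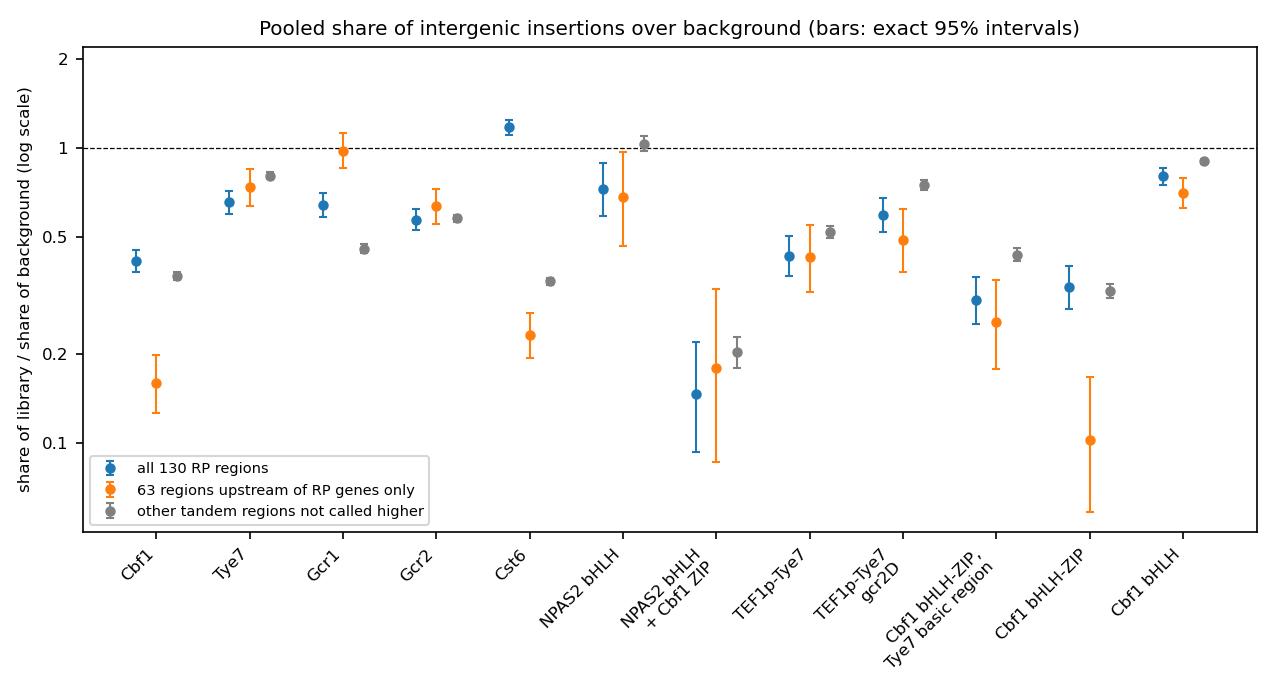
Ratio of each library's share of insertions to the background share (log axis; bars are exact 95% intervals that cover counting error) for all 130 ribosomal protein regions (blue), the 63 that lead into no other gene (orange) and other tandem regions not called higher (grey). The blue point lies below 1 in 11 libraries and at 1.17 in Cst6, where the orange point lies at 0.232. The 63 were taken by their bounding genes, and some span other genes.

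A region was tested when it held at least 10 insertions in the library and background together. It was called higher or lower when two-sided Fisher's exact test, with Benjamini-Hochberg adjustment over all regions tested, gave an adjusted p under 0.05 and the shares differed at least 2-fold after adding 1 insertion to each count. Folds given are ratios of raw shares. The test and the intervals count every listed insertion as independent, also where several lie at 1 position, and may thus overstate the evidence. Of the members, 10 regions were called higher in at least 1 library, in 16 calls over 8 libraries, and 120 were called higher in none of the 12. In single libraries 0% (Tye7) to 4% (Cst6) of tested members were called higher. Over all tested regions it was 0.0496% (NPAS2 bHLH) to 7.81% (Cst6). The share of all regions called higher in at least 1 library was not computed. Of the 10 regions, 9 are divergent and so lead into another gene as well, and 6 span another annotated gene. GAS2-RPL26A is the only one of the 10 whose bounding genes leave a ribosomal protein gene alone downstream, and the tRNA gene TRR4 lies inside it.

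**Figure D2:**
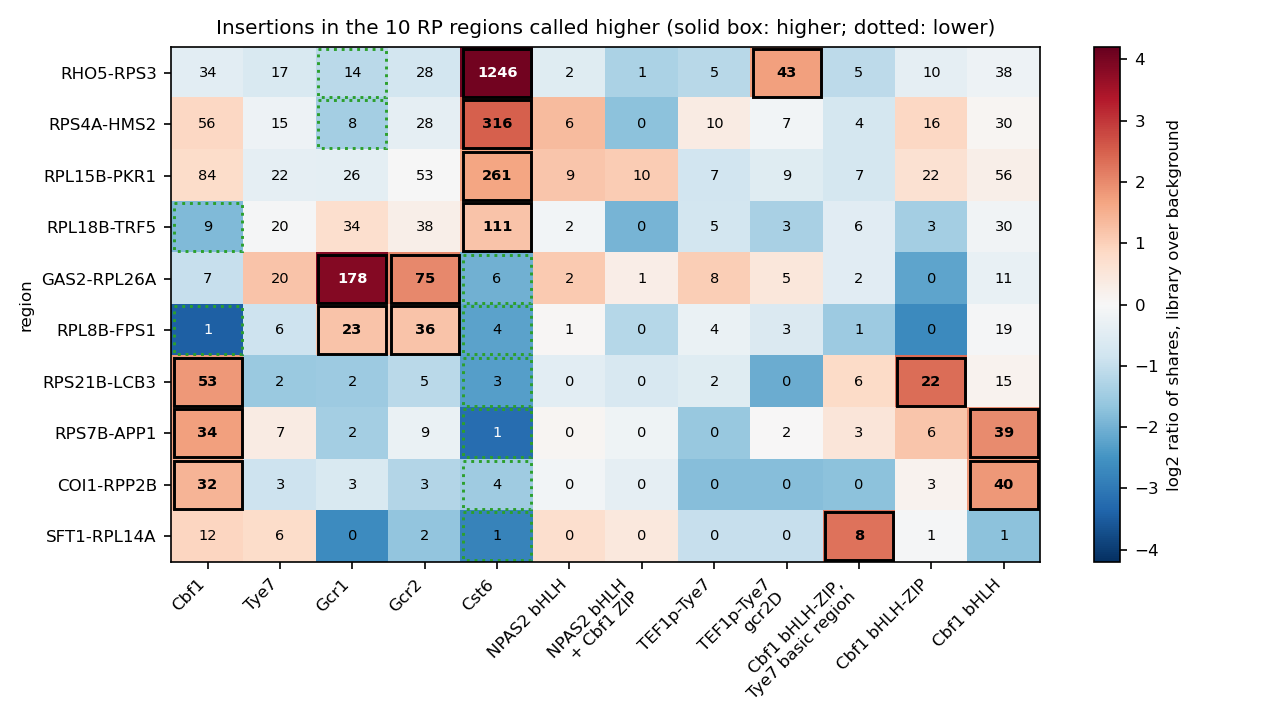
Log2 ratio of shares over background (1 insertion added to each count; colour) for the 10 regions called higher in a library, across 12 libraries, with insertion counts printed; solid boxes mark higher calls and dotted green boxes lower calls. RHO5-RPS3 stands out in Cst6 with 1246 insertions and GAS2-RPL26A in Gcr1 with 178.

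Cst6 gave the largest signal, at the divergent region between RHO5 and RPS3, which encodes a protein of the small subunit's head. The region lies on chromosome 14 from 300651 to 302682 (2032 bp, on a genome build not given in the sources used here). Cst6 placed 1246 insertions there, 3.30% of its total, at 564 distinct positions. TEF1p-Tye7 gcr2D placed 43 (0.566%). Every other library held 1 to 38, from 0.0350% in NPAS2 bHLH with the Cbf1 zipper to 0.148% in Cbf1 bHLH, at or below the background shares of 0.175% and 0.195%. Cst6 was 16.9-fold above its background (13.8 to 20.8), with a p too small for the computation to hold, and TEF1p-Tye7 gcr2D was 3.24-fold above (2.23 to 4.63, Fisher's exact test, adjusted p = 2.23e-07). In the 3 runs of the Cst6 list, blocks of insertions told apart by chromosome order, the share was 2.66% to 4.47%, and in those of TEF1p-Tye7 gcr2D 0.417% to 0.817%.

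Insertions in RHO5-RPS3 did not gather in the same stretch in every library. In Cst6 the fullest 100 bp was 501 to 600 bp from RPS3, with 318 insertions (25.5%), and 77.5% of the insertions were nearer RPS3 than RHO5. TEF1p-Tye7 gcr2D had its fullest stretch at 601 to 700 bp, with 15 of 43, and 86.0% nearer RPS3. Cbf1, whose count was not called, had 14 of 34 at 801 to 900 bp, and bHLH-ZIP had 7 of 10 in that stretch. The fullest stretch was that of Cst6 in Tye7, with 4 of 17, and in Cbf1 bHLH, with 6 of 38, and it was 301 to 400 bp in Gcr1, with 3 of 14, and in Gcr2, with 6 of 28. In Cst6 the stretches of RPS3 and RHO5 themselves held no insertion. The next region but one past RPS3, MRPL22-NOP13 on chromosome 14 from 304617 to 307403, lies beside genes for a mitochondrial ribosomal protein and a nucleolar protein. It held 242 insertions in Cst6, 21.5-fold above background (13.0 to 38.3, Fisher's exact test, adjusted p = 1.24e-70), and none in TEF1p-Tye7 gcr2D.

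Cst6 raised 3 other ribosomal protein regions, so that 4 of 100 tested members were called higher, beside 7.81% of all tested regions, and 76 were called lower, beside 52.5%. RPS4A encodes a small subunit protein, and RPS4A-HMS2 (chromosome 10, 703059 to 704187) spans the gene YJR146W. It held 316 insertions in Cst6, 0.836% against 0.145% in the background, or 5.77-fold (4.49 to 7.49, Fisher's exact test, adjusted p = 1.19e-54). RPL15B-PKR1 (chromosome 13, 510347 to 513592), shared with the gene of a V-ATPase assembly factor, spans YMR122C and the cell wall gene NCW1 and held 261 insertions, 0.691% against 0.216%, or 3.20-fold (2.57 to 4.02, Fisher's exact test, adjusted p = 3.24e-26). RPL18B-TRF5 (chromosome 14, 64562 to 66517), shared with the gene of a nuclear poly(A) polymerase, spans the cell wall gene TOS6. It held 111, 0.294% against 0.128%, or 2.29-fold (1.68 to 3.14, Fisher's exact test, adjusted p = 6.69e-07), and this call was lost without run 3 (1.24-fold, adjusted p = 0.492). The 316, 261 and 111 insertions of Cst6 lay at 194, 184 and 99 distinct positions. Outside the 4 regions called higher, the ribosomal protein regions stood at 0.207 times background in Cst6. Without run 3, the largest, the lower calls numbered 21.

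In the same 3 regions the remaining libraries were lower. RPS4A-HMS2 held 56 insertions in Cbf1 (0.206%), 30 in Cbf1 bHLH, 28 in Gcr2, 16 in bHLH-ZIP and 0 to 15 in the other 7. RPL15B-PKR1 was the ribosomal protein region with the largest share in Cbf1 (84 insertions, 0.309%), NPAS2 bHLH (9, 0.373%), NPAS2 bHLH with the Cbf1 zipper (10, 0.350%) and Cbf1 bHLH (56, 0.218%), and shared first place with RPS21B-LCB3 in bHLH-ZIP (22 each, 0.274%). It was called higher in none of these 5, and the background too held 122 insertions there. RPL18B-TRF5 held 34 insertions in Gcr1 (0.204%) and 38 in Gcr2 (0.150%) against a background share of 0.128%, and 0 to 30 in the 9 libraries other than Cst6 and these.

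**Figure D3:**
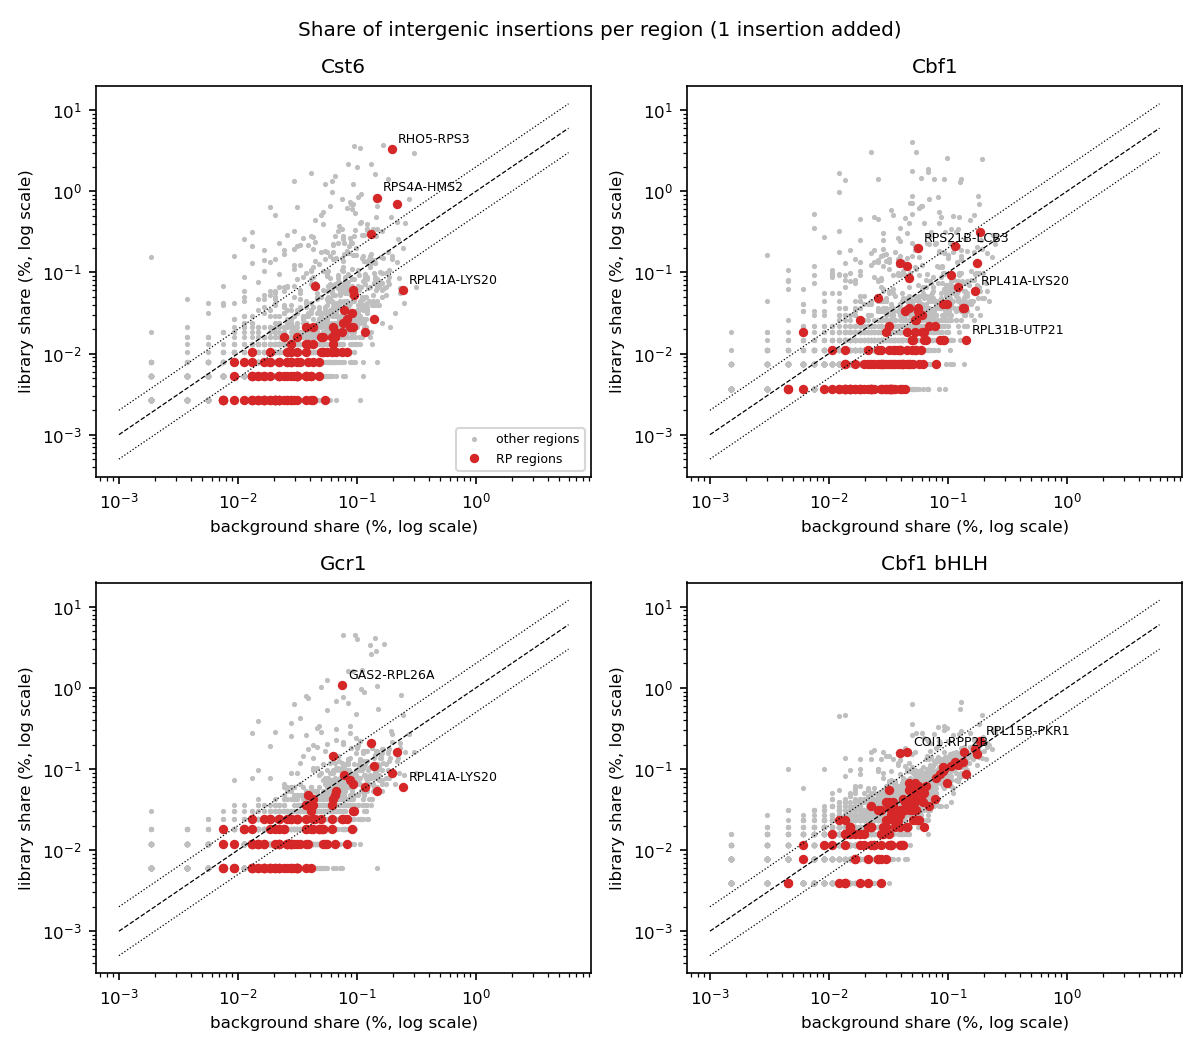
Share of insertions in each intergenic region in the library (vertical) against the background (horizontal), in percent on log axes with 1 insertion added, for Cst6, Cbf1, Gcr1 and Cbf1 bHLH; ribosomal protein regions are red, the dashed line marks equality and dotted lines mark 2-fold. Most red points lie below equality in Cst6 (95% of tested members) and Cbf1 (92.8%), and fewer do in Cbf1 bHLH (70.6%).

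Gcr1 and Gcr2 shared their highest ribosomal protein region, GAS2-RPL26A on chromosome 12 from 817761 to 819312 (1552 bp). GAS2 encodes a spore wall glucanosyltransferase whose gene points the same way, RPL26A a large subunit protein at the exit of the peptide tunnel, and the tRNA gene TRR4 lies between them. Gcr1 held 178 insertions (1.07%), Gcr2 75 (0.296%) and Tye7 20 (0.125%). Cbf1 bHLH held 11, TEF1p-Tye7 8, Cbf1 7, Cst6 6, TEF1p-Tye7 gcr2D 5, both the Tye7 basic region form and NPAS2 bHLH 2, NPAS2 bHLH with the zipper 1 and bHLH-ZIP 0. Gcr1 was thus highest, Gcr2 next, and the background share was 0.0558% for 9 libraries and 0.0725% for Gcr1, Gcr2 and Cst6. Gcr1 was 14.7-fold above background (10.4 to 21.4, Fisher's exact test, adjusted p = 1.09e-71) and Gcr2 4.08-fold (2.73 to 6.17, adjusted p = 1.4e-11). For Tye7 the ratio was 2.24 with an adjusted p of 0.372 by Fisher's exact test, which missed the threshold.

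The insertions of Gcr1 and Gcr2 in GAS2-RPL26A lay far from RPL26A. The stretch 1101 to 1200 bp from RPL26A, 353 to 452 bp from GAS2, held 103 of 178 insertions in Gcr1 (57.9%), 58 of 75 in Gcr2 (77.3%) and 6 of 20 in Tye7. In Gcr1 97.2% and in Gcr2 94.7% of the insertions were nearer GAS2. The share in single runs was 0.646% to 1.64% in Gcr1 and 0.0294% to 0.684% in Gcr2, where 2 of 3 runs lay above background. The insertions lay at 113 distinct positions in Gcr1 and 54 in Gcr2. With each position within 5 bp of the one before it merged into it, Gcr1 kept 21 sites and Gcr2 13. A chain of close positions thus counts as 1 site, so regions dense in insertions lose most by merging.

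The other region raised in both was RPL8B-FPS1 on chromosome 12 from 48628 to 49937. It lies between RPL8B, for a large subunit protein, and FPS1, for the glycerol channel of the plasma membrane. Gcr2 held 36 insertions (0.142%) and Gcr1 23 (0.138%), against 0.0613% in their background; the 10 other libraries held 0 to 19. Gcr1 was 2.25-fold above (1.26 to 3.95, Fisher's exact test, adjusted p = 0.0478) and Gcr2 2.31-fold (1.4 to 3.83, adjusted p = 0.0129). In both the fullest stretch was 1001 to 1100 bp from RPL8B, and 87.0% of the insertions in Gcr1 and 94.4% in Gcr2 were nearer FPS1. The Gcr1 call was lost without run 1 (Fisher's exact test, adjusted p = 0.129) or run 3 (0.394), and the Gcr2 call without run 1 (0.495).

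These 2 regions were the only members called higher in Gcr1, of 99 tested, and in Gcr2, of 102 tested. Over all regions tested, 3.4% were called higher in Gcr1 and 3.1% in Gcr2. Lower calls numbered 8 in Gcr1, beside 5.4% of all regions tested, and 13 in Gcr2, beside 7.04%. Scaled to insertions outside the 10 fullest regions, the counts were 3 higher and 1 lower in Gcr1 and 2 higher and 1 lower in Gcr2. Leaving out 1 run left 2 lower calls in Gcr1 without run 2 or run 3 and 5 without run 4, and in Gcr2 0, 6 and 3 without runs 1, 2 and 3.

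Full-length Cbf1 raised 3 ribosomal protein regions. RPS21B-LCB3 (chromosome 10, 157270 to 158185) lies between the gene of a small subunit protein and LCB3, for a sphingolipid phosphatase. Cbf1 held 53 insertions there (0.195%), bHLH-ZIP 22 (0.274%), Cbf1 bHLH 15 (0.0584%) and the form with the Tye7 basic region 6 (0.0830%). The remaining libraries held 0 to 5, against 0.0543% and 0.0502% in the backgrounds. The region was called higher in full-length Cbf1 and bHLH-ZIP only. Cbf1 bHLH and the Tye7 basic region form lay above background too but were not called. The part of the basic region or the zipper in this was not tested. Cbf1 was 3.59-fold above background (2.31 to 5.65, Fisher's exact test, adjusted p = 5.64e-08) and bHLH-ZIP 5.04-fold (2.83 to 8.81, adjusted p = 2.4e-06). The bHLH-ZIP call was lost without run 1 (2.79-fold, Fisher's exact test, adjusted p = 0.754).

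RPS7B-APP1 (chromosome 14, 444317 to 447613) lies between a small subunit gene and APP1, for a phosphatidate phosphatase, and spans YNL095C. COI1-RPP2B (chromosome 4, 1238843 to 1239485) is upstream of RPP2B, for an acidic protein of the stalk that binds elongation factors. Both were high in Cbf1 and in its bHLH fragment. RPS7B-APP1 held 34 insertions in Cbf1 (0.125%) and 39 in Cbf1 bHLH (0.152%), and 0 to 9 in the other libraries. In bHLH-ZIP, a smaller library, the 6 insertions there were 0.0747%, 1.98 times background, and were not called. COI1-RPP2B held 32 in Cbf1 (0.118%) and 40 in Cbf1 bHLH (0.156%), and 0 to 4 elsewhere. Cbf1 was 3.32-fold above its background of 0.0377% at RPS7B-APP1 (1.92 to 5.81, Fisher's exact test, adjusted p = 5.82e-05) and 2.69-fold above 0.0438% at COI1-RPP2B (1.58 to 4.62, adjusted p = 0.00125). For Cbf1 bHLH the folds were 4.02 (2.37 to 6.94, Fisher's exact test, adjusted p = 4.23e-06) and 3.56 (2.15 to 5.95, adjusted p = 1.55e-05). Both bHLH calls were lost without run 3, which holds most of that library (2.02-fold, Fisher's exact test, adjusted p = 1, and 3.05-fold, adjusted p = 0.48).

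Within these 3 regions the fullest stretch was the same in the Cbf1 forms that could be read. Positions were read only where a library held at least 8 insertions in a region. bHLH-ZIP was thus read in RPS21B-LCB3 alone, and the Tye7 basic region form in none. In RPS21B-LCB3, 33 of 53 insertions of Cbf1, 11 of 22 of bHLH-ZIP and 5 of 15 of bHLH lay 701 to 800 bp from RPS21B, 117 to 216 bp from LCB3. Of the Cbf1 insertions 98.1% were nearer LCB3. In RPS7B-APP1 the fullest stretch was 2801 to 2900 bp from RPS7B, 398 to 497 bp from APP1, with 11 of 34 in Cbf1 and 15 of 39 in bHLH. In COI1-RPP2B it was 301 to 400 bp from RPP2B, 244 to 343 bp from COI1, with 19 of 32 and 31 of 40. In full-length Cbf1 most insertions of all 3 regions were nearer the partner gene, with 64.7% in RPS7B-APP1 and 68.8% in COI1-RPP2B. In bHLH 80% were nearer LCB3 and 64.1% nearer APP1, but in COI1-RPP2B 57.5% were nearer RPP2B.

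The fullest stretches of Cbf1 and Cst6 differed in 2 other regions called higher in Cst6. In RPS4A-HMS2 Cst6 had 120 of 316 insertions at 501 to 600 bp from RPS4A, whereas Cbf1 had 24 of 56 and bHLH-ZIP 8 of 16 at 701 to 800 bp; Gcr2 had 11 of 28 in that stretch too. In RPL15B-PKR1 Cst6 had 96 of 261 at 601 to 700 bp from RPL15B, whereas Cbf1 had 22 of 84 and bHLH-ZIP 7 of 22 at 1501 to 1600 bp. In RPL18B-TRF5 they did not differ: the fullest stretch was 301 to 400 bp from RPL18B in both, with 20 of 111 in Cst6 and 2 of 9 in Cbf1. The fullest stretch of Cbf1 bHLH lay elsewhere in each of these regions. It was 401 to 500 bp in RPS4A-HMS2 (12 of 30) and 501 to 600 bp in RPL15B-PKR1 (6 of 56). In RPL18B-TRF5 it was 1 to 100 bp (9 of 30).

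**Figure D4:**
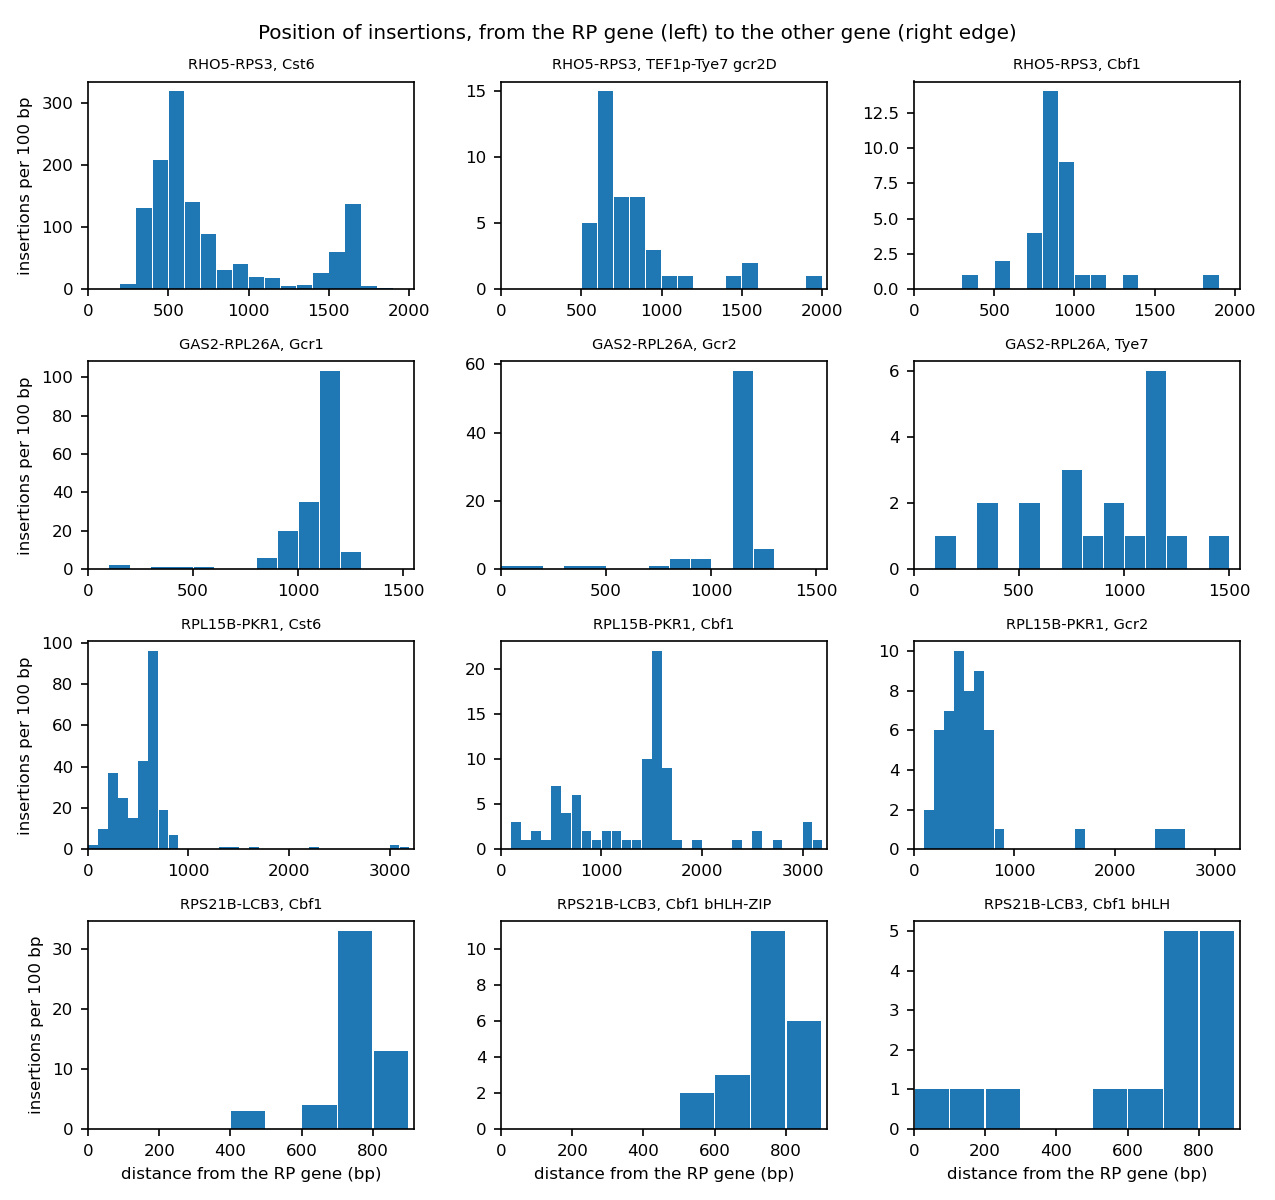
Insertions per 100 bp against distance in bp from the edge next to the ribosomal protein gene, in 4 regions (rows) and 3 libraries each (columns). In GAS2-RPL26A the fullest bar is at 1101 to 1200 bp in Gcr1 (103 insertions), Gcr2 (58) and Tye7 (6), and in RPS21B-LCB3 at 701 to 800 bp in Cbf1 (33), bHLH-ZIP (11) and bHLH (5).

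The Tye7 basic region form raised 1 member, SFT1-RPL14A (chromosome 11, 430275 to 431549), between the gene of a Golgi SNARE and that of a large subunit protein, with the small nucleolar RNA gene SNR87 inside. It held 8 insertions (0.111%), Cbf1 12 (0.0442%), Tye7 6 (0.0375%) and the other libraries 0 to 2. The fold over the background of 0.0241% was 4.58 (1.70 to 11.3, Fisher's exact test, adjusted p = 0.041), and run 1 alone held 2 insertions (adjusted p = 1). In this form 4 of 8 insertions lay 401 to 500 bp from RPL14A, and in Cbf1 6 of 12 lay at 1101 to 1200 bp.

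**Figure D5:**
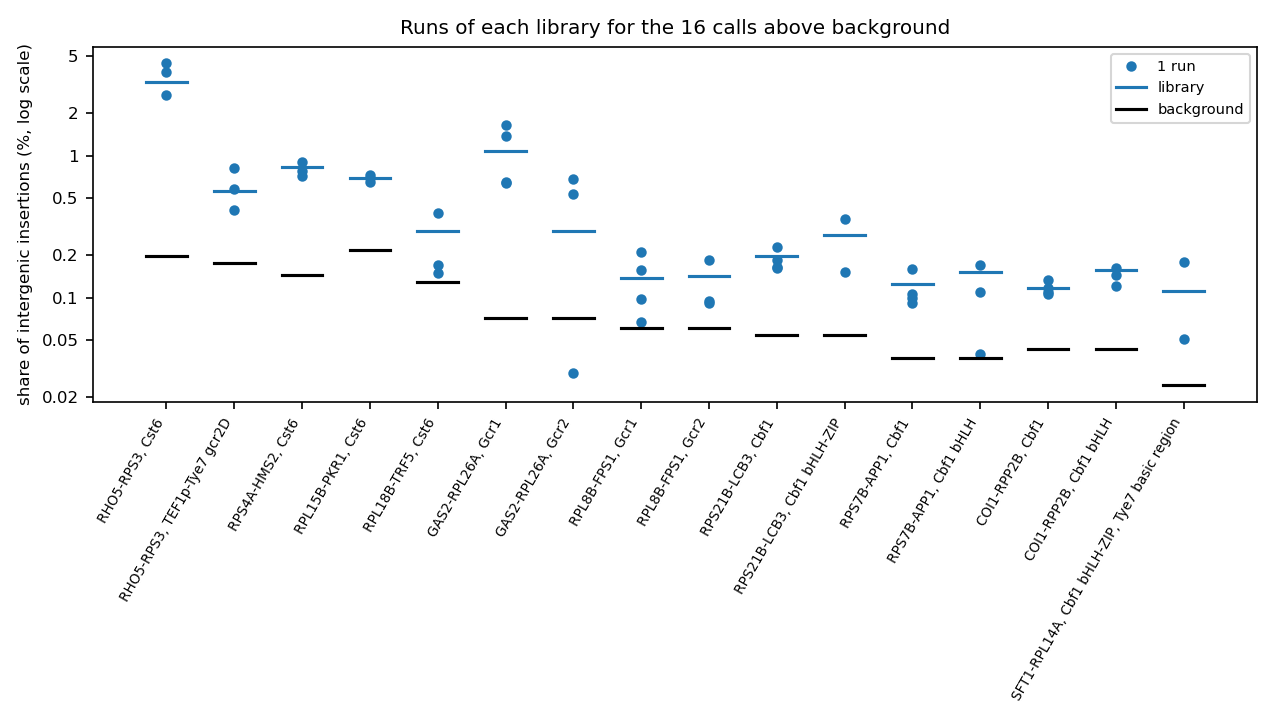
Share of intergenic insertions (percent, log axis) in each run of the library for the 16 higher calls, with lines for the whole library and its background. All 3 Cst6 runs lie above background in RHO5-RPS3 (2.66% to 4.47%), and 2 of 3 Gcr2 runs do in GAS2-RPL26A.

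Lower calls were more numerous than higher calls in Cbf1, Cst6, Gcr1, Gcr2 and bHLH-ZIP, and most numerous in Cbf1 and Cst6. Cbf1 was called higher at 3 of 111 tested members, beside 7.37% of all tested regions, and lower at 66 (59.5%), beside 31.7%. In Cst6 the 76 lower calls were 76.0% of tested members. Members tested in Cbf1 had a median of 25 background insertions against 19 over all tested regions, and the part of that difference in the called shares was not tested. The median log2 ratio does not depend on the calls. With 1 insertion added to each count it does depend on the background count, and the part of that was not tested either. It was -2.03 over the Cbf1 members and -1.30 over all tested regions. In Cst6 it was -2.16 and -1.68, in Gcr1 -1.13 and -0.89, and in Gcr2 -1.05 and -0.68. The Cbf1 lower calls numbered 25 without run 1 and 36 when scaled to insertions outside the 10 fullest regions.

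RPL31B-UTP21 (chromosome 12, 931754 to 934412), a tandem region that spans YLR406C-A, GAG1 and BLS1, was among the lowest. Of its bounding genes it leads into RPL31B alone. It held 3 insertions in Cbf1 (0.0111%), 2 in bHLH-ZIP, 6 in Cst6 (0.0159%) and 27 in Tye7 (0.169%), where it was the fullest member. Against backgrounds of 0.140% and 0.115%, Cbf1 was 12.7-fold lower (4.21 to 62.7, Fisher's exact test, adjusted p = 2.53e-09) and Cst6 7.26-fold lower (adjusted p = 6.39e-08). RPL41A-LYS20 (chromosome 4, 130485 to 133438), shared with the gene of the first enzyme of lysine synthesis, spans MRX19. It held 22 insertions in Cst6 (0.0582% against 0.242%, 4.15-fold lower, Fisher's exact test, adjusted p = 2.6e-11), 9 in Gcr1 (4.47-fold lower, adjusted p = 4.6e-06) and 15 in Cbf1 (3.00-fold lower, adjusted p = 8.34e-05). It was the fullest member in TEF1p-Tye7, with 13 insertions (0.171%).

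The other members called lower with the lowest adjusted p in Cbf1 were RPL8B-FPS1, with 1 insertion against 52 in the background (21.3-fold lower, 3.66 to 857, Fisher's exact test, adjusted p = 5.91e-06), RPS27B-MYO1 (8.19-fold), RPL38-TMA10 (8.05-fold), NMD4-RPS22B (7.64-fold), SAK1-RPS26B (4.05-fold) and RPL18B-TRF5 (4.0-fold), with adjusted p of 2.76e-05 to 9.56e-05. In Cst6 they were RPL11A-PRE2, with 0 insertions against 28 (at least 6.55-fold lower against 3 insertions in the library, Fisher's exact test, adjusted p = 6.01e-06), RPL41B-CDC53 (10.1-fold), RPL23A-BOI1 (9.13-fold), MOT1-RPS9A (8.19-fold), SAK1-RPS26B (5.77-fold) and FKH2-RPL9B (4.92-fold). RPL8B-FPS1 and RPL18B-TRF5 were thus low in Cbf1 and high in Gcr1 or Gcr2 and in Cst6, respectively. In Gcr1 the lower calls included RHO5-RPS3 (14 insertions, 2.32-fold, Fisher's exact test, adjusted p = 0.0255) and RPS4A-HMS2 (8 insertions, 3.02-fold, adjusted p = 0.0162). In Gcr2 RPL11A-PRE2 and RPL15A-RAD5 held 0 insertions, at least 4.4-fold and 3.3-fold lower against 3 insertions in the library (Fisher's exact test, adjusted p = 0.00138 and 0.0113).

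Tye7, TEF1p-Tye7, TEF1p-Tye7 gcr2D and both NPAS2 libraries gave 1 member call in all. Depth differs between libraries, and its part in the absence of lower calls was not tested. In libraries simulated from the background, regions lowered 8-fold were called lower in 26% of cases in Tye7 and 5% in TEF1p-Tye7. The share was 7% in TEF1p-Tye7 gcr2D and 0% in both NPAS2 libraries, against 65% in Cst6. The lowered regions were drawn from all regions with at least 10 background insertions, and most other regions followed the background. These rates are thus not the power for members in the real libraries. Gcr1, close to Tye7 in depth (16658 and 16000 intergenic insertions), had 32% in the simulation. In the real data 5.4% of all tested regions were called lower in Gcr1. The absence of lower calls here is not read as a result about the factors. In Tye7 0 of 114 tested members were called either way, beside 0.767% of all regions higher and 0.0% lower; at an unadjusted p under 0.05, 1 lay above and 11 below background, and the authors' Poisson p-value called 1 higher. In TEF1p-Tye7 0 of 113 were called, beside 1.22% higher and 0.0489% lower, with 0 above and 8 below at the unadjusted p. TEF1p-Tye7 gcr2D raised RHO5-RPS3 alone of 111, beside 2.33% higher and 0.0486% lower, with 0 lower (7 at the unadjusted p). With 1 insertion added to each count, these 3 libraries put 75.4%, 76.1% and 71.2% of tested members below background, beside 57.2%, 67.0% and 50.3% of all tested regions. The added insertion raises ratios most where background counts are low. Tested members had a median of 25 background insertions. Over all tested regions it was 18 in Tye7, 20 in TEF1p-Tye7 and 20 in TEF1p-Tye7 gcr2D. The part of this in the difference was not tested. For NPAS2 bHLH 0 of 110 were called, beside 0.0496% higher and 0.0% lower, with 1 above and 0 below at the unadjusted p. With the Cbf1 zipper 0 of 111 were called, beside 2.66% higher and 0.0% lower, with 0 above and 2 below.

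Among the Cbf1 fragments, bHLH-ZIP was called higher at 1 of 110 tested members, beside 4.2% of all regions, and lower at 2, beside 2.49%. The lower members were RPL41A-LYS20 (3 insertions, 4.44-fold, 1.48 to 21.9, Fisher's exact test, adjusted p = 0.0352) and RPL31B-UTP21 (2 insertions, 5.63-fold, 1.52 to 47.2, adjusted p = 0.0391). Scaled to insertions outside the 10 fullest regions, bHLH-ZIP had 4 higher and 0 lower. The Tye7 basic region form had 1 higher of 110, beside 3.44%, and 0 lower, beside 0.492% (9 below at the unadjusted p). Cbf1 bHLH had 2 higher of 119, beside 2.75%, and 0 lower, beside 0.208% (19 below at the unadjusted p). Simulated regions lowered 8-fold were called lower in 5% of cases in bHLH-ZIP, 6% in the Tye7 basic region form and 41% in Cbf1 bHLH.

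By subunit, the large and small subunit regions differed most in Cst6. There the RPS regions stood at 2.11 times background (1.96 to 2.28) and the RPL regions at 0.518 (0.47 to 0.57). Without the regions called higher, RHO5-RPS3 and RPS4A-HMS2 among them, the ratios were 0.20 and 0.209. In Gcr1 the order was opposite, with RPL at 0.793 and RPS at 0.440, and without the regions called higher RPL stood at 0.404. In Cbf1 RPS stood at 0.477 and RPL at 0.338, and without the higher calls at 0.353 and 0.338. The 5 stalk regions held 33 insertions in Cbf1, 32 of them in COI1-RPP2B, and 61 in Cbf1 bHLH, 40 of them there.

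Of 57 paralog pairs, none had both copies called higher in any of the 12 libraries. Higher calls made up only 0% (Tye7) to 4% (Cst6) of tested members in a library, so this absence says little about the pairs. Among pairs with at least 10 insertions, the interval of the copy ratio lay apart from that of the background in few. These were 2 of 12 in Cst6, 4 of 12 in Cbf1, 1 of 10 in Gcr1 and 2 of 17 in Gcr2. The pairs named next are among those with the largest ratios. In Cst6 RPL15B held 261 insertions and RPL15A 1, where the background held 116 and 21. RPS4A held 316 and RPS4B 2, a ratio of 158 (43.4 to 1310 by the exact interval) against 5.57 in the background. In both pairs the copy with more insertions in Cst6 is also the one with more insertions in the background. In Gcr1 RPL26A held 178 and RPL26B 3, 59.3-fold (20 to 290), and in Gcr2 75 and 7, 10.7-fold (4.95 to 27.6), where the background ratio was only 1.5. In Cbf1 RPP2B held 32 and RPP2A 0, against 29 and 21 in the background, and RPL15B held 84 and RPL15A 1, against 122 and 25. Both copies were called lower in 16 pairs in Cst6, 10 in Cbf1 and 1 in Gcr1. Of tested members, 76.0%, 59.5% and 8.08% were called lower in these 3 libraries. RPL2A-RPL29, a tandem region upstream of RPL2A, held 25 insertions in Cst6, of which 18 lay within 100 bp of RPL2A.

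Between Tye7, mapped in tye7D cells, and Cbf1, mapped in cbf1D cells, 12 of 32 tested members were higher in Tye7, beside 27.0% of all tested regions, and 5 were lower, beside 19.9%. Those lower in Tye7 included the Cbf1 regions above. RPS21B-LCB3 held 2 insertions in Tye7 and 53 in Cbf1 (15.6-fold lower, 4.12 to 132, Fisher's exact test, adjusted p = 8.06e-08), and COI1-RPP2B 3 and 32 (6.29-fold lower, 1.97 to 32.1, adjusted p = 0.00138). RPS7B-APP1, RPL15B-PKR1 and RPS4A-HMS2 were 2.86-fold, 2.25-fold and 2.2-fold lower. Higher in Tye7 were RPL31B-UTP21 with 27 against 3 (15.3-fold, 4.70 to 78.6, Fisher's exact test, adjusted p = 2.59e-08), RPL38-TMA10 and RPS27B-MYO1 (8.48-fold each, adjusted p = 0.00044) and GAS2-RPL26A with 20 against 7 (4.85-fold, adjusted p = 0.000858). RPL18B-TRF5 and SAK1-RPS26B were 3.77-fold higher each. None of the 12 regions higher in Tye7 was called higher in Tye7 over background. With insertions within 5 bp merged the counts were 1 higher and 3 lower, and with at least 5 reads per insertion 5 were higher.

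Changes within Cbf1 gave few member calls. Between bHLH-ZIP and full-length Cbf1, 0 of 17 tested members were called, beside 1.4% higher and 1.64% lower. Between bHLH and bHLH-ZIP, which differ in the zipper, 2 of 37 were higher, beside 8.67%, and 1 lower, beside 7.06%. RPS21B-LCB3 was lower without the zipper, with 15 insertions against 22 in libraries of 25688 and 8028 intergenic insertions (4.69-fold, 2.33 to 9.73, Fisher's exact test, adjusted p = 7.66e-05), and remained called with positions merged, but not without bHLH-ZIP run 1 (adjusted p = 0.466). RPL41A-LYS20 (44 against 3, 4.58-fold, Fisher's exact test, adjusted p = 0.025) and COI1-RPP2B (40 against 3, 4.17-fold, adjusted p = 0.0453) were higher without the zipper, and both calls were lost with positions merged or with at least 5 reads per insertion. Between the Tye7 basic region form and bHLH-ZIP, 0 of 7 were higher, beside 8.88%, and 1 lower, beside 13.1%: RPS21B-LCB3 with 6 against 22 (3.30-fold lower, 1.30 to 9.96, Fisher's exact test, adjusted p = 0.0311). That call was lost with positions merged (Fisher's exact test, adjusted p = 0.769).

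Adding the Cbf1 zipper to NPAS2 bHLH left 1 member to test, RPL15B-PKR1, with 10 insertions against 9 (ratio 0.939, 0.343 to 2.61, Fisher's exact test, adjusted p = 1). Calls were thus 0 of 1, where 59.7% of all tested regions were higher and 4.84% lower with the zipper. The pooled share of the 130 regions was 0.202 times that of NPAS2 bHLH (0.122 to 0.322). Between TEF1p-Tye7 and Tye7, 0 of 19 members were called, beside 1.97% higher and 0.656% lower, and the pooled ratio was 0.659 (0.555 to 0.781). Between TEF1p-Tye7 gcr2D and TEF1p-Tye7, RHO5-RPS3 was the only one of 11 called higher, beside 11.9%, and 0 were lower, beside 5.93%. It held 43 insertions against 5 (Fisher's exact test, adjusted p = 1.18e-07), and 24 against 5 with positions merged (3.41-fold, adjusted p = 0.107). Between Gcr1 and Gcr2, GAS2-RPL26A was the only one of 31 called higher, beside 3.64%, and 0 were lower, beside 1.52% (3.62-fold, 2.75 to 4.8, Fisher's exact test, adjusted p = 1.15e-20). It was not called with positions merged (2.83-fold, Fisher's exact test, adjusted p = 0.355) or without Gcr2 run 1 (1.77-fold, adjusted p = 0.00082).

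In the 40 tandem regions that lead into a ribosomal protein gene with no other gene inside, insertions within 100 bp of the gene were 20.8% of 48 in Cst6, 20.5% of 132 in Cbf1 bHLH and 20% of 70 in Tye7. In 1640 other such tandem regions the values were 7.84%, 9.40% and 8.52%. Cbf1 went the other way, at 3.03% of 33 insertions against 6.79%. The ribosomal protein regions are longer, with a median of 569 bp against 387 bp, and these shares rest on few insertions and carry no test.

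Regions of other genes of the translation machinery were read by the same test. Of 9 regions of their regulators, DUS3-SFP1, upstream of the activator gene SFP1 (chromosome 12, 924448 to 925567), held 82 insertions in Cst6 (6.87-fold above background, 4.04 to 12.4, Fisher's exact test, adjusted p = 1.11e-15). DOT6-PTC2, upstream of a repressor of ribosome biogenesis genes, held 14 in NPAS2 bHLH with the Cbf1 zipper (5.15-fold, 2.67 to 9.29, Fisher's exact test, adjusted p = 0.000161). No other regulator region was called higher in the 12 libraries. Of the 9 regulator regions, 7 or 8 were tested in each library. Of 19 translation factor regions, 12 to 14 were tested and 0 were called higher in any library. Tested ribosome biogenesis regions numbered 7 to 13, and mitochondrial ribosomal protein regions 23 to 36. Over all tested regions, higher calls ran from 0.0496% in NPAS2 bHLH to 7.81% in Cst6. Few or no higher calls in lists of this size thus say little about the genes. Of 20 ribosome biogenesis regions, 1 was raised: GAR1-YNG2, for a protein of the pseudouridylation complex, held 28 insertions in Cbf1, 17 in the Tye7 basic region form and 25 in Cbf1 bHLH, against 2 in the background. Of 66 mitochondrial ribosomal protein regions, RSM7-STE24 was raised in Cbf1 (130 insertions, 3.92-fold), bHLH-ZIP (3.26-fold) and Cbf1 bHLH (2.2-fold). SHU1-MRP4 was raised in the same 3 libraries and in NPAS2 bHLH with the Cbf1 zipper, and MRPL22-NOP13 in Cst6. Lower calls were frequent in 2 libraries, beside 31.7% of all tested regions in Cbf1 and 52.5% in Cst6. In Cbf1 they were 3 of 8 tested regulator regions, 5 of 13 translation factor regions, 5 of 13 ribosome biogenesis regions and 9 of 29 mitochondrial ribosomal protein regions. In Cst6 they were 3 of 7, 8 of 13, 4 of 7 and 13 of 25, in the same order. The other 10 libraries had 0 to 2 lower calls in each list.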

How the data were processed

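Insertions of Ty5 were counted in 12 libraries, 1 per group. Alignment was with Novoalign, per the submitters' processing notes; not given in the sources used here are the genome build and the making of the background set. The authors deposited lists of insertions with a read count each, and tables of insertion counts per intergenic region for library and background, with each as a fraction of all insertions. The deposited Poisson p-value of the authors was used as an alternative only. Lists consist of several sorted blocks (runs), told apart by restarts of the chromosome order; the labels do not name them. Of 4657 gene identifiers, 4656 matched the R64 table, which was used for names and neighbours only.

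Counts were used as deposited, with shares over intergenic insertions. Two-sided Fisher's exact test was run for every region that held 10 or more insertions in both sets together, with Benjamini-Hochberg adjustment over all of these, in 12 comparisons with background and 8 between libraries; calls needed adjusted p < 0.05 and shares at least 2-fold apart, 1 insertion being added to each count. Exact 95% intervals of ratios condition on the summed counts. The script was tested on simulated data. Python 3.11.15, numpy 2.4.6, pandas 2.3.3, scipy 1.17.1 and matplotlib 3.10.9 were used. Named regions were up to 8 per direction with the lowest adjusted p, the 3 fullest per library, and paralog pairs among the 5 with the largest ratio; others are named for their level alone. Alternatives were the widened (Lax) counts, at least 20 insertions, at least 5 reads, positions merged in chains with steps of up to 5 bp, regions of ribosomal protein genes alone, shares of all insertions, another scaling, the Poisson p-value, and each run left out. The members and lists were chosen with earlier results of these data known. Sequence motifs were not analysed here. A result that needs a withheld item is not reported here.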

Additional observations from a re-analysis of the deposited data

How the results depend on the processing

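Of 457 alternative values for 52 results, 345 stayed on the same side and close, 110 moved and 2 reversed; main values stand in brackets. With the widened counts, lower calls were 5 in Gcr1 (8), 8 in Gcr2 (13), 0 in bHLH-ZIP (2) and 1 in Cbf1 bHLH (0), and higher calls 0 in the Tye7 basic region form (1). With at least 20 insertions, lower calls were 15 in Gcr1, 42 in Cst6 (76), 1 in TEF1p-Tye7 gcr2D (0) and 1 in Cbf1 bHLH; Tye7 over Cbf1 had 6 higher (12), and the Tye7 basic region form 3 lower than bHLH-ZIP (1). With at least 5 reads, Tye7 over Cbf1 had 5 higher, bHLH over bHLH-ZIP 0 higher (2) and the Tye7 basic region form 0 lower than bHLH-ZIP. With positions merged, Tye7 over Cbf1 had 1 higher and 3 lower (5), bHLH over bHLH-ZIP 0 higher and 2 lower (1), and the Tye7 basic region form against bHLH-ZIP, TEF1p-Tye7 gcr2D against TEF1p-Tye7, and Gcr1 against Gcr2 kept 0 calls (1 each).

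In regions of ribosomal protein genes alone, higher calls were 1 each in Gcr1 and Gcr2 (2 each) and 0 in Cbf1 (3), Cst6 (4), TEF1p-Tye7 gcr2D, the Tye7 basic region form, bHLH-ZIP (1 each) and Cbf1 bHLH (2). Lower calls were 29 in Cbf1 (66), 2 in Gcr1, 3 in Gcr2, 24 in Cst6 and 1 in bHLH-ZIP. Pooled ratios were 0.160 in Cbf1 (0.413), 0.738 in Tye7 (0.655), 0.980 in Gcr1 (0.642), 0.634 in Gcr2 (0.571), 0.489 in TEF1p-Tye7 gcr2D (0.594), 0.103 in bHLH-ZIP (0.339), 0.705 in Cbf1 bHLH (0.803) and, reversed, 0.232 in Cst6 (1.17). Tye7 over Cbf1 had 6 higher and 0 lower, and bHLH over bHLH-ZIP, the Tye7 basic region form against bHLH-ZIP, and TEF1p-Tye7 gcr2D against TEF1p-Tye7 had 0. Fewer regions entered these counts. As shares of all insertions, pooled ratios were 0.506 in Cbf1, 0.713 in Gcr1, 0.682 in Gcr2, 1.28 in Cst6, 0.372 in the Tye7 basic region form (0.306), 0.412 in bHLH-ZIP and 0.926 in Cbf1 bHLH. By the authors' Poisson p-value Tye7 had 1 higher (0) and bHLH-ZIP 2.

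Scaled to insertions outside the 10 fullest regions, higher calls were 6 in Cbf1, 1 in NPAS2 bHLH with the Cbf1 zipper (0) and 4 in bHLH-ZIP; lower calls were 36 in Cbf1, 1 in Gcr1, 1 in Gcr2 and 0 in bHLH-ZIP; bHLH over bHLH-ZIP had 0 higher and 2 lower. Pooled ratios were 0.538 in Cbf1, 0.791 in Tye7, 0.942 in Gcr1, 0.776 in Gcr2, 1.58 in Cst6, 0.322 in NPAS2 bHLH with the Cbf1 zipper (0.147), 0.705 in TEF1p-Tye7 (0.432) and in TEF1p-Tye7 gcr2D, 0.476 in the Tye7 basic region form and 0.506 in bHLH-ZIP. Without its fullest member, a library stood at 0.369 in Cbf1, 0.441 in Gcr1, 0.521 in Gcr2, 0.0859 in NPAS2 bHLH with the Cbf1 zipper, 0.507 in TEF1p-Tye7 gcr2D and, reversed, 0.554 in Cst6. Beyond the fewer regions or insertions that each setting leaves, the cause was not tested.

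Leaving out each run in turn gave lower calls of 25 to 53 in Cbf1, 2 to 8 in Gcr1, 0 to 6 in Gcr2, 21 to 74 in Cst6 and 0 to 0 in bHLH-ZIP, and higher calls of 1 to 2 in Gcr1 and in Gcr2, 0 to 1 in the Tye7 basic region form and in bHLH-ZIP, and 0 to 2 in Cbf1 bHLH. Pooled ratios ran from 0.545 to 0.633 in Gcr2, 1.11 to 1.33 in Cst6 and 0.651 to 0.821 in Cbf1 bHLH. Between libraries, bHLH over bHLH-ZIP had 0 to 3 higher and 0 to 1 lower, the Tye7 basic region form 0 to 2 lower than bHLH-ZIP, TEF1p-Tye7 gcr2D over TEF1p-Tye7 1 to 2 higher, and Gcr1 over Gcr2 0 to 1 higher. No paired analysis was possible because each group has 1 library. The values of single regions with positions merged, a read minimum or a run left out, and the pooled ratios without regions called higher, were chosen after seeing the data. Depth limits both NPAS2 libraries most, since 3 insertions are 0.124% of NPAS2 bHLH.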
